A study of Homo sapiens with 15 samples.

Results

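H7, an established line of human embryonic stem cells, was differentiated to atrial cardiomyocytes, and these were given the first of 2 small interfering RNAs (siRNAs) against ATRNL1, here siRNA-1, and compared with the same kind of cells given a scramble siRNA. The comparison held 6 of the 15 libraries of the series, 3 with siRNA-1 and 3 with scramble, and was chosen by the names of the count columns. All groups carried the wild-type genotype of H7 and the same differentiation. Per the labels' protocols, spheroids were driven to heart muscle with activin A, BMP4, bFGF and CHIR-99021, then treated with the WNT pathway inhibitors XAV-939, IWR1-Endo and IWP-2, and steered to the atrial fate with TTNPB, retinoic acid and SAG before dissociation at day 17. For the siRNAs, the sources used here give no dose, sequence or days. A second siRNA against ATRNL1 (siRNA-2, 3 libraries) serves here only to show where the first one differs. It was compared with siRNA-1 directly, since both share the scramble controls. The other 6 libraries came from cells transduced with lentivirus (a control virus, or one for the short ATRNL1 isoform). They entered the filter on low counts, the scaling and the estimate of the spread, but no comparison of groups.

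ATRNL1 encodes attractin-like 1, a membrane protein of the attractin family. Its relative attractin, encoded by ATRN, is known from mouse coat colour and energy balance, where it acts in melanocortin receptor signalling. An siRNA loads into an argonaute complex and directs the cutting of mRNAs that match it, and a scramble siRNA serves as the control for the delivery and loading of such an RNA. The endoplasmic reticulum (ER) folds secreted and membrane proteins, and its stress response raises chaperones through the factors ATF6, XBP1 and ATF4. Cholesterol is made by a chain of enzymes whose genes are switched on together by the SREBP factors when sterol falls. Contraction of heart muscle rests on sarcomere proteins, calcium stores and ion channels.

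Levels are in CPM (counts scaled per library to a common depth), with library sizes corrected by TMM factors. A gene was called where edgeR's quasi-likelihood test, fitted to all 15 libraries and 24659 genes, gave an adjusted p (Benjamini-Hochberg) under 0.05. Libraries are numbered by their columns. The scramble libraries differed among themselves more than the siRNA-1 libraries did. Over 7167 genes above 20 CPM, the log2 difference between scramble libraries 1 and 2 had an SD of 0.243, against 0.137 for the widest pair of siRNA-1. Scramble library 3 held the middle value for 74.3% of these genes. Its profile lay close to an equal mixture of scramble libraries 1 and 2, with a chi-square of 2.49 per degree of freedom and an SD of 0.041 on the log2 scale. Library 2 of siRNA-1 lay in the same way near a mixture of 60% of library 1 and 40% of library 3 (chi-square of 2.24). For the other libraries of both groups the closest mixture gave a chi-square of 6.09 to 21.0. In the labels of the siRNA-1, siRNA-2 and both lentivirus groups, the number in 1 title is made of the digits of the other 2. The titles of the scramble group do not show this. The sources used here do not say whether a library was made from pooled cells or RNA. A pair of stricter readings is therefore given beside the calls. The first asked, for a gene already called, for a call in the same direction with each scramble library in turn as the sole control. Such a test has 1 control library, which is assumed to vary like the libraries of the other groups, since these give the spread. The single-control tests share the siRNA-1 libraries and are not independent. With scramble library 3 near a mixture of libraries 1 and 2, its test adds little to theirs. The second left out the library of each of the 5 groups that lay closest to a mixture of the other two, which left 10 libraries, 2 in each group.

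ATRNL1 itself, the target of the siRNA (ENSG00000107518, chromosome 10, 115093365 to 115948992 of GRCh 38, plus strand), stood at 16.9, 13.8 and 15.3 CPM under scramble and 10.2, 9.02 and 8.26 CPM under siRNA-1. The groups did not overlap. The fall was a log2 change of -0.74 (SE 0.11, adjusted p = 8.95e-05). With scramble library 1, 2 or 3 as the sole control the log2 fold change was -0.88, -0.58 or -0.72, and in the 10-library fit it was -0.73 (adjusted p = 0.0301). With siRNA-2 ATRNL1 stood at 4.93, 5.42 and 4.61 CPM, so the level left by siRNA-1 was higher (log2 difference 0.88, SE 0.12, adjusted p = 2.61e-05). ATRN stood at 152, 158 and 156 CPM under scramble and 119.9, 124 and 134 CPM under siRNA-1. It fell by 0.30 (SE 0.07, adjusted p = 0.00391) without overlap, and was not called in the 10-library fit (-0.29, adjusted p = 0.274). Of the 9 genes of the attractin family and its partners, the third called was MC4R, a melanocortin receptor, at 0.456, 0.281 and 0.321 CPM under scramble and 0.704, 0.879 and 0.49 CPM under siRNA-1. It rose by 0.98 (SE 0.30, adjusted p = 0.0381), a change not called with any of the scramble libraries as the sole control or in the 10-library fit (adjusted p = 0.584).

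In all, 1443 genes rose with siRNA-1 (5.85% of those tested) and 927 fell (3.76%), together 2370 genes (9.61%). Of these, 177 rose and 64 fell by at least 1 on the log2 scale. Counts for the lists below are read against the 5.85% and 3.76% of all genes tested. The number of called genes depended on which scramble library served as the control. With scramble library 1 alone 330 genes were higher (1.23%) and 238 lower (0.89%), with library 2 alone 1665 (6.21%) and 833 (3.1%), and with library 3 alone 733 (2.73%) and 339 (1.26%). A call in the same direction under all 3 single controls was reached by 225 genes that rose (0.912%) and 111 that fell (0.45%), together 336 (1.36%). Only genes also called with all 3 scramble libraries together were counted, and these are called stable in what follows. Without regard to a test, the libraries of the 2 groups did not overlap for 3624 genes higher with siRNA-1 (14.7%) and 3467 lower (14.1%). A fit to the 6 libraries alone gave 1358 genes higher (6.13%) and 936 lower (4.22%). In the 10-library fit 300 genes were higher (1.22%) and 133 lower (0.543%). Of the 336 stable genes, 201 that rose and 88 that fell were also called there.

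The 14 stable genes named for their rise were ranked by their smallest change over the single controls. XIRP2, a muscle protein that binds actin at cell attachments, stood at 8.93, 2.38 and 6.24 CPM under scramble and 45, 31.8 and 16.2 CPM under siRNA-1 and rose by 2.42 in log2 units (SE 0.28, adjusted p = 2.53e-06). The groups did not overlap, but the libraries spread within both. OPCML, a GPI-anchored adhesion molecule of neurons, stood at 2.48, 2.18 and 2.47 CPM under scramble and 7.43, 7.42 and 7.89 CPM under siRNA-1. The 3 libraries of each group lay close together, and OPCML rose by 1.67 (SE 0.12, adjusted p = 3.93e-09). PADI2, an enzyme that converts arginine residues of proteins to citrulline, stood at 13, 6.91 and 9.68 CPM under scramble and 36.1, 40.4 and 37.7 CPM under siRNA-1 (log2 change 1.96 with an SE of 0.13, adjusted p = 1.17e-09). CNRIP1, a protein that binds the cannabinoid receptor, rose from 3.3, 1.89 and 2.83 to 8.63, 10.6 and 9.76 CPM (1.86, SE 0.14). KIT, the receptor for stem cell factor, rose from 2.93, 2.05 and 3.23 to 10.4, 8.27 and 7.33 CPM (1.64, SE 0.14). In each of the 5 genes every siRNA-1 library lay above every scramble library, which the ranking by the smallest single-control change favours.

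The other 9 of the 14 lay in the same way apart. MAOB, a mitochondrial enzyme that breaks down amines, stood at 8.14, 9.34 and 8.9 CPM under scramble and 26.6, 22.7 and 21.6 CPM under siRNA-1 (log2 change 1.42 with an SE of 0.10, adjusted p = 2.55e-09). PPM1E, a protein phosphatase, stood at 4.87, 4.6 and 4.48 CPM under scramble and 11.7, 12 and 12.8 CPM under siRNA-1 (log2 change 1.40 with an SE of 0.10, adjusted p = 2.55e-09). Both had tight values within each group, so that the single controls gave 1.54, 1.35 and 1.42 for MAOB and 1.32, 1.42 and 1.46 for PPM1E. The log2 fold changes were 1.79 for DIRAS2, a small GTPase of the Ras family, 1.65 for GAP43, a growth cone protein of neurites, and 1.52 for CNTN3, a contactin. They were 1.48 for GADL1, a decarboxylase, 1.43 for OLFM1, a secreted olfactomedin, 1.42 for CDH13, a cadherin without a cytoplasmic tail, and 1.25 for HPGD, the enzyme that inactivates prostaglandins. All 14 were also called in the 10-library fit.

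Among 13 stable genes named for their fall, CHAC1 changed most. CHAC1, an enzyme that breaks down glutathione and a target of ATF4, stood at 4.89, 5.49 and 4.84 CPM under scramble and 1.27, 1.27 and 1.34 CPM under siRNA-1. It fell by 1.97 (SE 0.17, adjusted p = 5.39e-08), and the 3 single controls gave -1.92, -2.07 and -1.89. BANCR, a long noncoding RNA (ENSG00000278910, chromosome 9, 69296682 to 69311111, minus strand), stood at 33.4, 30.4 and 31.5 CPM under scramble and 11.4, 11.1 and 11.3 CPM under siRNA-1 and fell by 1.49 (SE 0.09, adjusted p = 1.99e-10). The 3 siRNA-1 values were within 0.3 CPM of each other. IGF2, a fetal growth factor, stood at 425, 438 and 393 CPM under scramble and 235, 244 and 218 CPM under siRNA-1 (log2 change -0.85 with an SE of 0.09, adjusted p = 7.42e-07). In none of the 3 did siRNA-1 and scramble libraries overlap, which the same ranking favours.

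KCNQ1, the pore of the slow delayed rectifier potassium channel, stood at 36.3, 37.2 and 36.2 CPM under scramble and 19.8, 21.1 and 19 CPM under siRNA-1 (log2 change -0.88 with an SE of 0.11, adjusted p = 6.31e-06). P2RX1, a channel opened by ATP, stood at 22.8, 24 and 23.8 CPM under scramble and 12.2, 13.1 and 12.9 CPM under siRNA-1 (log2 change -0.89 with an SE of 0.08, adjusted p = 1.13e-07). LEFTY2, a secreted inhibitor of nodal signalling, stood at 3.43, 3.56 and 3.56 CPM under scramble and 2.05, 2.25 and 1.49 CPM under siRNA-1 (log2 change -0.88 with an SE of 0.16, adjusted p = 0.000395). The log2 fold changes of TMEM40, a membrane protein, and FER1L4, a transcribed pseudogene, were -1.07 and -0.85. SSXP10, a processed pseudogene whose reads may be shared with its parent family, was at -1.03, and ENSG00000260912, a transcript that overlaps another gene on the same strand, at -0.86. The 3 others, MSMO1, SDF2L1 and HERPUD1, are given with their pathways below. Of the 13, only TMEM40 was not called in the 10-library fit (adjusted p = 0.0544).

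**Figure D1:**
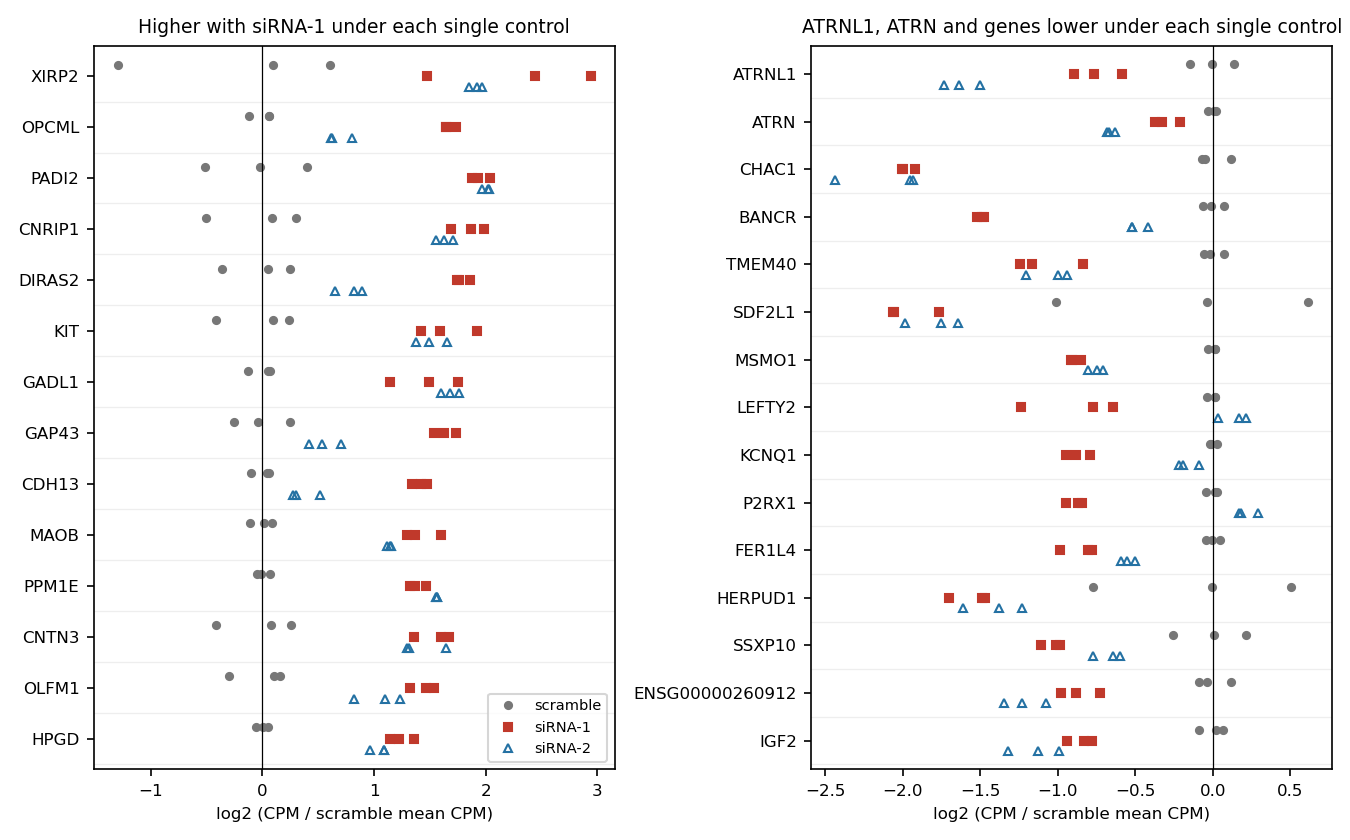
Level of ATRNL1, ATRN and 27 stable genes named for their size of change in single libraries, as log2 of CPM over the mean CPM of scramble, with 1 row per gene and 3 points per group (circles scramble, squares siRNA-1, open triangles siRNA-2). The siRNA-1 squares lie outside the range of the scramble circles in every row, with XIRP2 the most spread and BANCR among the tightest; siRNA-2 lies near scramble for P2RX1, LEFTY2 and KCNQ1 and near siRNA-1 for CHAC1, MSMO1 and PADI2.

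Genes of cholesterol synthesis fell together and kept nearly the same size whichever scramble library was the control. Of 21 enzymes of the pathway measured, 14 fell and 0 rose, with a median log2 fold change of -0.40 against -0.01 over all genes tested. The median was -0.34, -0.37 and -0.39 with scramble library 1, 2 and 3 as the sole control. The mean log2 CPM of the list was 5.13, 5.17 and 5.16 in the scramble libraries and 4.83, 4.80 and 4.77 with siRNA-1. Of the 14 enzymes, 6 were stable, and 6 were called in the 10-library fit.

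The members ran along the length of the pathway. HMGCS1, which makes the precursor of mevalonate, stood at 208, 219 and 214 CPM under scramble and 148, 137 and 136 CPM under siRNA-1 (log2 change -0.61 with an SE of 0.07, adjusted p = 5.06e-06). MVD, which makes isopentenyl diphosphate, stood at 18.5, 21.9 and 21.1 CPM under scramble and 11.8, 11 and 11.5 CPM under siRNA-1 (log2 change -0.85 with an SE of 0.10, adjusted p = 5.05e-06). The groups did not overlap in either gene. IDI1, the isomerase of the next step, stood at 65.5, 67.8 and 69.1 CPM under scramble and 44.5, 40.6 and 40.4 CPM under siRNA-1 (log2 change -0.69 with an SE of 0.09, adjusted p = 1.02e-05). SQLE, which oxidises squalene, stood at 80.1, 78.8 and 77.3 CPM under scramble and 55.7, 52.3 and 54.4 CPM under siRNA-1 (log2 change -0.54 with an SE of 0.08, adjusted p = 3.89e-05). MSMO1, a sterol oxidase of the late pathway, stood at 93, 96 and 95.7 CPM under scramble and 52.7, 50.3 and 50.6 CPM under siRNA-1 (log2 change -0.89 with an SE of 0.09, adjusted p = 2.28e-07). MSMO1 had the largest fall of the called enzymes, with single-control values of -0.86, -0.90 and -0.89. HSD17B7, an oxidoreductase that acts late in sterol synthesis, fell by 0.71 (SE 0.12, adjusted p = 0.000284), but was called neither with scramble library 1 alone nor in the 10-library fit (adjusted p = 0.0566).

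Genes of sterol regulation and uptake fell less uniformly, with 6 of 14 lower, 0 higher and a median of -0.17. INSIG1, which holds the SREBP complex in the ER, stood at 98.9, 108 and 102 CPM under scramble and 59.8, 60.2 and 61.1 CPM under siRNA-1 (log2 change -0.77 with an SE of 0.09, adjusted p = 1.4e-06) without overlap. It was stable and called in the 10-library fit (adjusted p = 0.00428). SREBF1, which encodes an SREBP factor, fell by 0.38 (SE 0.08, adjusted p = 0.00186), and STARD4, a sterol carrier, by 0.44 (SE 0.08, adjusted p = 0.000358). In the 10-library fit the adjusted p was 0.0526 for SREBF1 and 0.103 for STARD4. For fatty acid synthesis 7 of 16 genes fell and 0 rose, with a median of -0.20. FASN, the fatty acid synthase, stood at 119, 150.2 and 129 CPM under scramble and 70.6, 76.5 and 83.8 CPM under siRNA-1 (log2 change -0.79 with an SE of 0.10, adjusted p = 5.06e-06). The desaturases FADS1 and FADS2 fell by 0.59 (SE 0.08, adjusted p = 2.94e-05) and 0.52 (SE 0.07, adjusted p = 2.83e-05), and both were stable. SCD, which makes monounsaturated fatty acids, fell by 0.60 (SE 0.11, adjusted p = 0.000541). SCD was not stable, with -0.22 against scramble library 1 and -0.88 against library 2, and not called in the 10-library fit (adjusted p = 0.105).

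Chaperones and folding enzymes of the ER had the lowest median of the pathway lists, and it varied most with the scramble library. Of 22 genes measured, 19 fell and 0 rose, with a median log2 fold change of -0.87. The median was -0.26 with scramble library 1 as the sole control, -1.21 with library 2 and -0.87 with library 3. The mean log2 CPM of the list was 6.30, 7.22 and 6.85 in scramble and 5.95, 6.00 and 6.04 with siRNA-1, so all 3 scramble libraries lay above siRNA-1, with library 1 nearest. Of the 19 genes, 7 were stable and 13 were called in the 10-library fit.

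HSPA5, the main chaperone of the ER lumen, stood at 905, 2193 and 1583 CPM under scramble and 523, 585 and 639.9 CPM under siRNA-1, with no overlap and with scramble library 2 the highest. It fell by 1.42 (SE 0.18, adjusted p = 7.14e-06), and by single control the values were -0.64, -1.90 and -1.43. HSP90B1, the HSP90 of the ER, stood at 787, 2062 and 1446 CPM under scramble and 490, 530.1 and 577 CPM under siRNA-1 (log2 change -1.43 with an SE of 0.19, adjusted p = 1.13e-05). SDF2L1, which works with HSPA5, stood at 5.02, 15.5 and 9.83 CPM under scramble and 2.43, 2.43 and 2.98 CPM under siRNA-1 (log2 change -1.96 with an SE of 0.24, adjusted p = 5.96e-06). In each of these 3 genes the scramble libraries came in the order 1, 3, 2 from low to high. MANF, a secreted protein held in the ER, stood at 74.9, 169 and 123 CPM under scramble and 47, 52.4 and 51.9 CPM under siRNA-1 (log2 change -1.28 with an SE of 0.16, adjusted p = 6.99e-06). HSPA5, HSP90B1, SDF2L1, MANF and the co-chaperones DNAJB9 and DNAJB11 were stable, as was CALR, the calcium-binding chaperone calreticulin. CALR stood at 472, 829 and 663 CPM under scramble and 342, 360.5 and 375 CPM under siRNA-1 (log2 change -0.87 with an SE of 0.12, adjusted p = 2.83e-05). The members that were called but nearest to scramble library 1 were PPIB, a proline isomerase, at -0.01 with that control and -0.92 with library 2, and DNAJC3, an inhibitor of the kinase PERK, at 0.01 and -0.89. Both overlapped between the groups, and neither was called in the 10-library fit (adjusted p = 0.259 and 0.309).

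Promoters of these genes are shown because the ER stress response is known to act on them through the ER stress response element, CCAAT and CCACG with 9 bases of any kind between them, which binds NF-Y and ATF6. The element was searched on both strands of the 300 bases from 250 before to 50 after each gene's start, in the promoters of RefSeq on GRCh38.p14. It was found in 22 of 27305 promoters (0.0806%). Promoters were matched for 21 of the 22 genes of the list, and 6 of them held it, HSP90B1 in 2 places. The 7 matches are given 5′ to 3′ on the strand that reads CCAAT first, with CCAAT and CCACG in capitals.
CALR, chr19:12938384-12938402, 206 bases before the start: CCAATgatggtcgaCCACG
CANX, chr5:179698778-179698796, 132 bases before the start: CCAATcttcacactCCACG
CRELD2, chr22:49918554-49918572, 61 bases before the start: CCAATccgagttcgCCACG
ERO1B, chr1:236282183-236282201, 224 bases before the start: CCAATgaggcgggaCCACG
HSP90B1, chr12:103930216-103930234, 175 bases before the start: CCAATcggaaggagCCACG
HSP90B1, chr12:103930321-103930339, 70 bases before the start: CCAATcgcgccgcaCCACG
HSPA5, chr9:125241391-125241409, 47 bases before the start: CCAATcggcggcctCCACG
The 130 bases before the HSPA5 start (chr9:125241344-125241473, minus strand) read as follows, with the match in capitals.
HSPA5: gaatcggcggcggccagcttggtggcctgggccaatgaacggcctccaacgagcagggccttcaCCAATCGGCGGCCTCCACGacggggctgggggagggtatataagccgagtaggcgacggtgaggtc
All 6 genes with a match fell with siRNA-1, by 1.42 for HSPA5, 1.43 for HSP90B1, 0.97 for ERO1B, 0.95 for CRELD2, 0.87 for CALR and 0.64 for CANX, which was not called in the 10-library fit (adjusted p = 0.056). Of the 15 matched genes of the list without these letters in the window, 12 fell. No promoter among 15 of ER-associated degradation or 25 of ER translocation held it. The sterol element, ATCAC and CCAC around 1 base of any kind, was in 42 of all promoters (0.154%) and in 0 of 16 promoters of cholesterol enzymes. It was in 1 of 12 promoters of sterol regulation and uptake (8.33%), that of SREBF2, which was not called (-0.22). These are matches of letters in 1 window per gene, and binding was not measured.

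**Figure D2:**
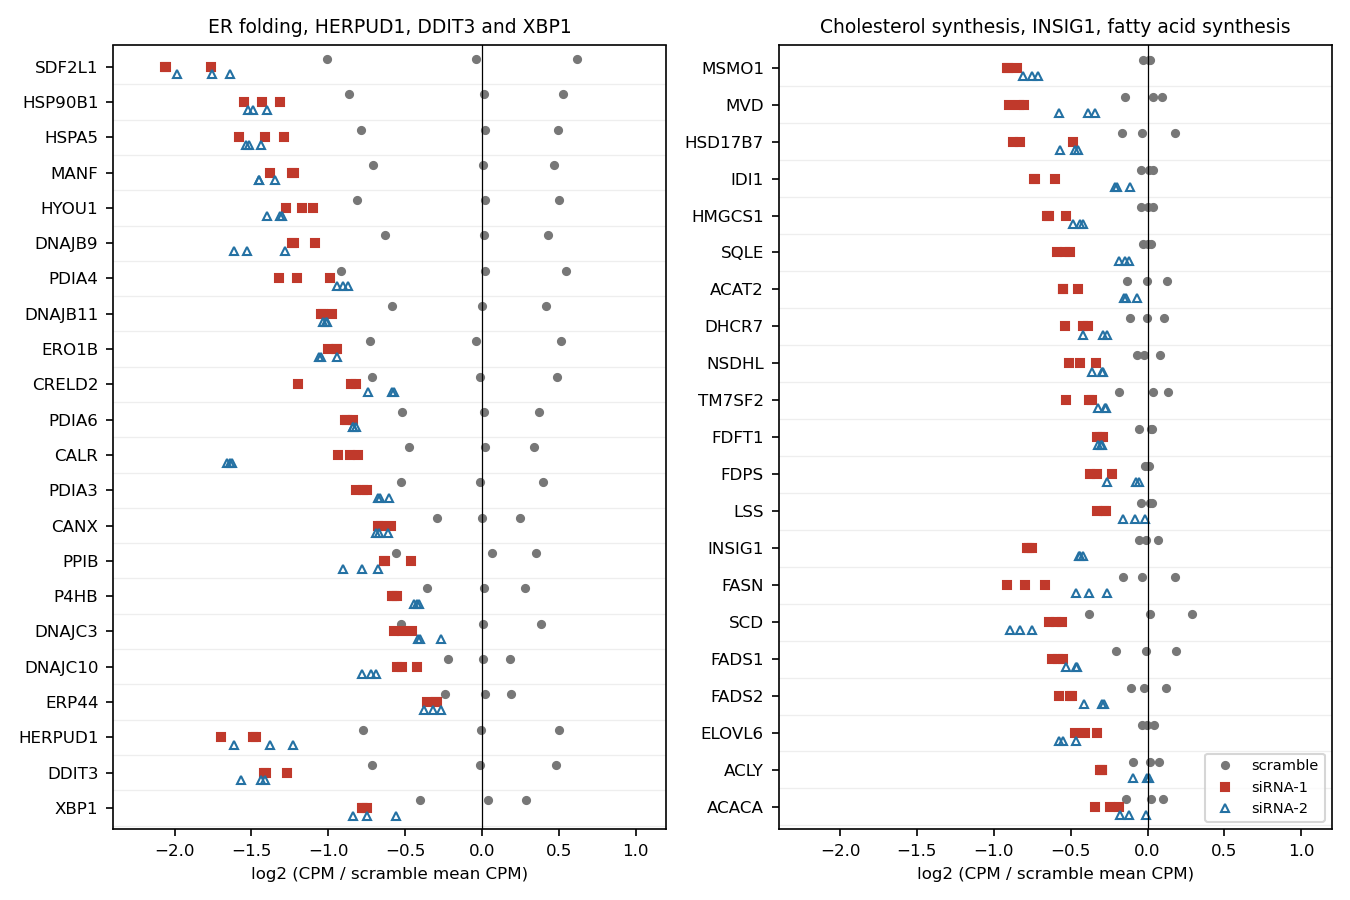
Level in single libraries as log2 of CPM over the mean CPM of scramble, on 1 scale for both panels, for called genes of ER folding with HERPUD1, DDIT3 and XBP1 (left) and of sterol and fatty acid synthesis with INSIG1 (right); circles are scramble, squares siRNA-1 and open triangles siRNA-2. The scramble circles spread widely on the left and lie close together on the right, while siRNA-1 lies below nearly all of them on both sides.

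The genes that carry misfolded proteins out of the ER followed the chaperones in part. Of 18 genes of ER-associated degradation, 9 fell and 0 rose, with a median of -0.23. HERPUD1, a membrane protein of the retrotranslocation complex, stood at 98.6, 239 and 168 CPM under scramble and 51.9, 60.03 and 61 CPM under siRNA-1 (log2 change -1.55 with an SE of 0.18, adjusted p = 2.27e-06), and was the stable member. EDEM1, which selects misfolded glycoproteins, fell by 0.83 (SE 0.13, adjusted p = 0.000129), and HERPUD1 and EDEM1 were the members called in the 10-library fit. The value of EDEM1 was -0.26 against scramble library 1. SYVN1, the ubiquitin ligase of the complex, fell by 0.63 (SE 0.12, adjusted p = 0.000763) and was not called in the 10-library fit (adjusted p = 0.0657). DERL3, a derlin, fell by 1.75 (SE 0.33) from 0.782, 1.64 and 1.15 to 0.293, 0.284 and 0.472 CPM, a level near the limit of the counts, and was not called in the 10-library fit (adjusted p = 0.0731). For ER translocation and early secretory transport 14 of 30 genes fell and 2 rose, with a median of -0.25, and 0 were stable. SEC24D, a coat protein of vesicles that leave the ER, stood at 33.9, 78.6 and 54.9 CPM under scramble and 27.5, 28.6 and 31 CPM under siRNA-1 (log2 change -0.94 with an SE of 0.16, adjusted p = 0.000279). The median of this list was -0.02 with scramble library 1 alone and -0.40 with library 2 alone.

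Sensors and factors of the unfolded protein response were next, with 4 of 11 lower and 0 higher. DDIT3, a transcription factor induced by ER stress, stood at 14.5, 33.3 and 23.6 CPM under scramble and 9.88, 8.92 and 8.98 CPM under siRNA-1 (log2 change -1.37 with an SE of 0.17, adjusted p = 7.55e-06) and was stable. XBP1 stood at 94.6, 152 and 128 CPM under scramble and 72.7, 73.2 and 74.6 CPM under siRNA-1 (log2 change -0.77 with an SE of 0.12, adjusted p = 9.77e-05) and was called in the 10-library fit (adjusted p = 0.0363). CREB3L2, an ER-anchored factor of secretory cells, fell by 0.48 (SE 0.09) and ATF4 by 0.34 (SE 0.09), and neither was called in the 10-library fit (adjusted p = 0.0679 and 0.348). Of 30 targets of ATF4 and amino acid stress, 11 fell and 1 rose, with a median of -0.23. The sign of that median turned with the control, to 0.14 with scramble library 1 alone and -0.61 with library 2 alone. CHAC1 was the stable member. ASNS, which makes asparagine, stood at 1.65, 1.93 and 1.93 CPM under scramble and 0.567, 0.827 and 0.78 CPM under siRNA-1 (log2 change -1.36 with an SE of 0.24, adjusted p = 0.000386). ALDH1L2, a folate enzyme of mitochondria, fell by 1.41 (SE 0.26), with -0.29 against scramble library 1 and -2.02 against library 2. SLC7A11, the cystine transporter, fell by 0.78 (SE 0.13). Of 20 cytosolic aminoacyl-tRNA synthetases 1 fell, WARS1 at -0.52 (SE 0.15) with overlapping groups, and against scramble library 1 it stood at 0.15. WARS1 was not called in the 10-library fit (adjusted p = 0.34).

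Of 26 targets of p53, the factor that halts the cell cycle after damage, 14 fell and 0 rose, with a median of -0.36. CCNG1, a cyclin induced by p53, stood at 444, 450.5 and 442 CPM under scramble and 292, 286 and 299.6 CPM under siRNA-1 and fell by 0.61 (SE 0.09, adjusted p = 4.3e-05). It was the stable member and the one called in the 10-library fit (adjusted p = 0.0305). CDKN1A, the inhibitor p21, stood at 358, 452 and 397 CPM under scramble and 262, 286 and 294 CPM under siRNA-1 (log2 change -0.52 with an SE of 0.09, adjusted p = 0.000376). FAS, a death receptor, fell by 0.55 (SE 0.12), and FDXR, a mitochondrial reductase, by 0.54 (SE 0.15). The adjusted p of CDKN1A, FAS and FDXR in the 10-library fit was 0.0565, 0.211 and 0.302. The median stayed below 0 with each single control, at -0.22, -0.43 and -0.34.

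Genes of the cell cycle were higher against scramble library 2 and hardly against library 1. Of 43 genes of DNA replication, 15 rose and 0 fell, with a median of 0.20. MCM6, a subunit of the replicative helicase, stood at 34.9, 24.3 and 31.8 CPM under scramble and 44.6, 45.2 and 45.9 CPM under siRNA-1 (log2 change 0.58 with an SE of 0.09, adjusted p = 6.39e-05) and was the stable member. CHAF1B, a histone chaperone of replication, rose by 0.73 (SE 0.14, adjusted p = 0.000739), E2F2, a cell cycle factor, by 0.80 (SE 0.15, adjusted p = 0.000701) and UHRF1, which maintains DNA methylation, by 0.57 (SE 0.16, adjusted p = 0.0226). Against scramble library 1 alone UHRF1 was at 0.07 and against library 2 at 1.18. MCM6 and MCM2 were called in the 10-library fit, and the other 3 named were not (adjusted p = 0.0544, 0.0658 and 0.421).

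Of 30 genes of mitosis, 6 rose and 0 fell, with a median of 0.24. Against scramble library 2 alone 24 of the 30 were higher and the median was 0.66. Against scramble library 1 alone 0 were called and the median was -0.06. None of the 30 was called in the 10-library fit, where MAD2L1 had an adjusted p of 0.155 and KIF11 of 0.326. The mean log2 CPM of the list was 4.40, 3.75 and 4.12 in scramble and 4.35, 4.33 and 4.26 with siRNA-1. The siRNA-1 libraries thus lay within the range of scramble for this list, with scramble library 2 low. KIF11, a spindle motor, stood at 33.5, 20.7 and 26.6 CPM under scramble and 34.5, 36.6 and 35.6 CPM under siRNA-1, and its rise of 0.41 (SE 0.10, adjusted p = 0.0127) became 0.09 against library 1. MAD2L1, a spindle checkpoint protein, rose by 0.53 (SE 0.10), KIF20A, a kinesin of cell division, by 0.41 (SE 0.11) and UBE2C, a ubiquitin carrier of mitotic exit, by 0.40 (SE 0.10).

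**Figure D3:**
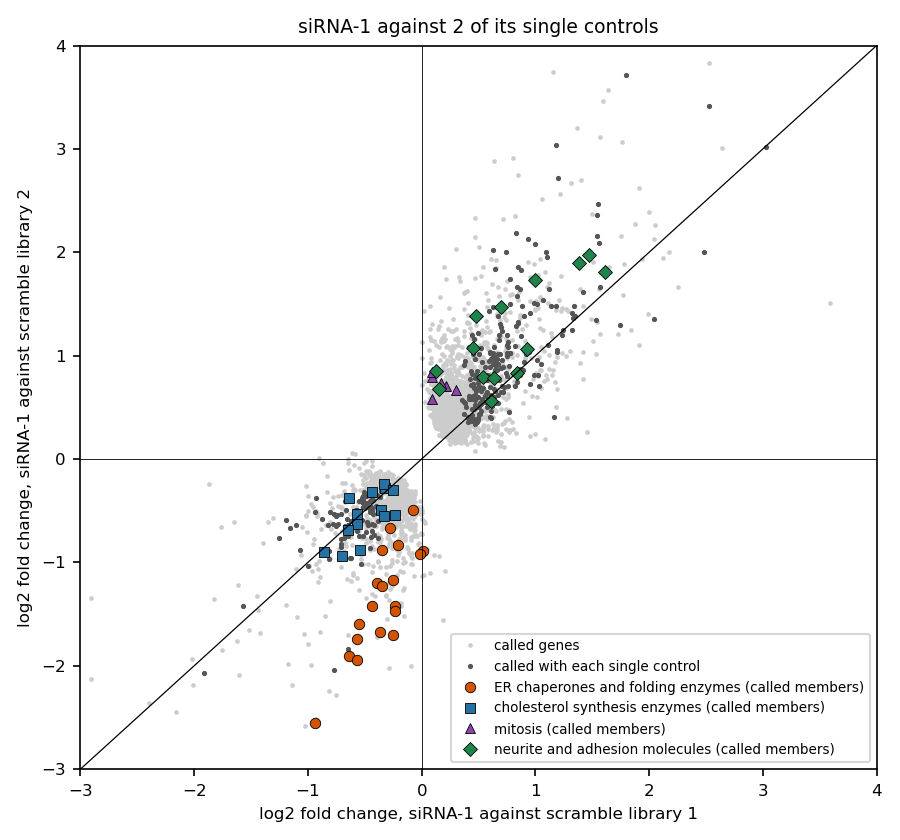
Log2 fold change of siRNA-1 against scramble library 1 (x axis) and against scramble library 2 (y axis) for the genes called over all 3 controls, with 4 of them outside the axes; dark points were called with each single control, coloured symbols are called members of 4 lists, and the diagonal marks equal values. Cholesterol enzymes lie around the diagonal, ER chaperones far below it with values near 0 on the x axis for several, and mitosis genes lie above it near 0 on the x axis.

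Among genes of the heart's electrical activity, KCNQ1 had the largest fall. Of 27 potassium channel genes 4 rose and 1, KCNQ1, fell, against 5.85% and 3.76% of all genes tested. KCNJ2, the inward rectifier that sets the resting potential, stood at 7.84, 8.2 and 7.76 CPM under scramble and 10.8, 10.7 and 12.2 CPM under siRNA-1 (log2 change 0.50 with an SE of 0.09, adjusted p = 0.000308). KCNJ8, the pore of a potassium channel gated by ATP, stood at 9.84, 7.79 and 9.09 CPM under scramble and 18.7, 15.6 and 12.6 CPM under siRNA-1 (log2 change 0.81 with an SE of 0.12, adjusted p = 3.96e-05). Both were stable and called in the 10-library fit, and neither overlapped. ABCC9, the regulatory subunit that pairs with KCNJ8, rose by 0.32 (SE 0.09, adjusted p = 0.0179) and was not called in the 10-library fit (adjusted p = 0.101). Of 14 sodium and pacemaker channel genes 3 rose and 1 fell. SCN8A, a sodium channel known from neurons, stood at 4.89, 3.21 and 4.28 CPM under scramble and 7.16, 7.63 and 8.85 CPM under siRNA-1 (log2 change 0.94 with an SE of 0.13, adjusted p = 3.46e-05) and was the stable member. SCN2A rose by 1.03 (SE 0.21) and SCN3B, an auxiliary subunit, by 0.58 (SE 0.12), and neither was called in the 10-library fit (adjusted p = 0.0589 and 0.187).

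Calcium genes moved in both directions, with 5 of 27 higher and 3 lower, against 5.85% and 3.76% of all genes tested. ITPR1, a calcium release channel of the ER, stood at 15.8, 21.1 and 20.5 CPM under scramble and 11.5, 11.8 and 11.4 CPM under siRNA-1 (log2 change -0.73 with an SE of 0.10, adjusted p = 1.06e-05). ATP2A2, the pump that refills the sarcoplasmic reticulum, stood at 2492, 2737 and 2670 CPM under scramble and 1890, 1919 and 2018 CPM under siRNA-1 (log2 change -0.44 with an SE of 0.07, adjusted p = 0.000216). Neither overlapped, and both were stable, but ATP2A2 was not called in the 10-library fit (adjusted p = 0.168). CASQ2, the calcium store protein of heart muscle, stood at 3.08, 2.4 and 2.41 CPM under scramble and 6.47, 4.73 and 4.45 CPM under siRNA-1 and rose by 1.01 (SE 0.14, adjusted p = 1.87e-05). STIM1, a sensor of ER calcium, rose by 0.38 (SE 0.09, adjusted p = 0.00576; 0.161 in the 10-library fit).

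The calls among sarcomere genes depended on the scramble library, and some on siRNA-1 library 1. The mean log2 CPM of the Z-disc list was 7.44, 6.93 and 7.22 in scramble and 7.70, 7.49 and 7.22 with siRNA-1. For the thin filament it was 8.20, 7.94 and 8.09 in scramble and 8.37, 8.22 and 8.04 with siRNA-1. Without siRNA-1 library 1, LMOD2, MYL2, MYOM2 and TCAP were not called (adjusted p = 0.152, 0.0827, 0.0575 and 0.425). The other sarcomere genes named here stayed called. The share that rose is read against the 5.85% of all genes tested. With all 3 controls the median was 0.09 for the thick filament and M-band, 0.09 for the thin filament and 0.19 for the Z-disc. With scramble library 1 alone it was -0.08, -0.05 and -0.00, with 1 gene of each list higher and 1 thick filament and 1 Z-disc gene lower. With library 2 alone it was 0.32, 0.18 and 0.44, with 7, 6 and 11 genes higher and 1 thin filament gene lower. For the thick filament and M-band 4 of 14 rose and 0 fell. MYH7, a myosin heavy chain, stood at 4454, 4008 and 4257 CPM under scramble and 6373, 5998 and 5439 CPM under siRNA-1, and rose by 0.49 (SE 0.08, adjusted p = 0.000257), stable over the single controls but not called in the 10-library fit (adjusted p = 0.173). MYL2, a ventricular myosin light chain, stood at 1195, 1069 and 1134 CPM under scramble and 1830, 1557 and 1266 CPM under siRNA-1 (log2 change 0.45 with an SE of 0.11, adjusted p = 0.00583), and MYOM2 and MYOM3, M-band proteins, rose by 0.52 (SE 0.15) and 0.88 (SE 0.23). MYL2, MYOM2 and MYOM3 were not called in the 10-library fit (adjusted p = 0.268, 0.321 and 0.131). For the thin filament 2 of 15 rose and 1 fell. LMOD3, which nucleates actin filaments in muscle, stood at 26.2, 22.1 and 22.9 CPM under scramble and 48.5, 46 and 40.1 CPM under siRNA-1 (log2 change 0.92 with an SE of 0.09, adjusted p = 2.88e-07), and was stable and called in the 10-library fit. LMOD2, its relative, rose by 0.57 (SE 0.15) with overlap between the groups, and NEB, nebulin, fell by 0.57 (SE 0.11), both not called in the 10-library fit (adjusted p = 0.268 and 0.0928). Of 20 Z-disc and stretch-sensing genes 7 rose and 1 fell, and XIRP2 was the stable member and the one called in the 10-library fit. CAVIN4, a muscle protein of caveolae, rose by 0.86 (SE 0.17), MYOZ1, a partner of calcineurin, by 0.76 (SE 0.16) and TCAP, which caps titin, by 0.50 (SE 0.15). Their adjusted p in the 10-library fit was 0.0793, 0.0624 and 0.288.

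Of 18 genes of connexins and the intercalated disc, 2 rose and 2 fell, against 5.85% and 3.76% of all genes tested. Counts this small say little about a list. DSC2, a desmosomal cadherin, stood at 29, 28.5 and 27.9 CPM under scramble and 21.5, 21.5 and 20.9 CPM under siRNA-1 (log2 change -0.42 with an SE of 0.07, adjusted p = 0.000246) and was the stable member. DSG2, its desmosomal partner, fell by 0.25 (SE 0.07), while CDH2, N-cadherin, rose by 0.23 (SE 0.07) and CTNNA3, a catenin of the disc, by 0.33 (SE 0.09). The adjusted p of DSG2, CDH2 and CTNNA3 in the 10-library fit was 0.39, 0.553 and 0.37. Of 10 genes of the natriuretic peptide system 1 rose and 2 fell. NPPA, atrial natriuretic peptide, stood at 69.95, 59.8 and 59.5 CPM under scramble and 50.6, 40.5 and 31.8 CPM under siRNA-1 (log2 change -0.62 with an SE of 0.11, adjusted p = 0.000569) and was stable. NPR3, the receptor that clears the peptides, fell by 0.67 (SE 0.17) with overlap and was not called in the 10-library fit (adjusted p = 0.26), and PRKG1, a kinase driven by cyclic GMP, rose by 0.52 (SE 0.09). Of 27 cardiac transcription factors 7 rose, 0 fell and 0 were stable. ISL1, a factor of cardiac progenitors, rose by 0.47 (SE 0.13), IRX3, a factor of the conduction system, by 0.34 (SE 0.10) and TBX2, a repressor of chamber genes, by 0.30 (SE 0.09). None of the 3 was called in the 10-library fit (adjusted p = 0.425, 0.335 and 0.268).

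**Figure D4:**
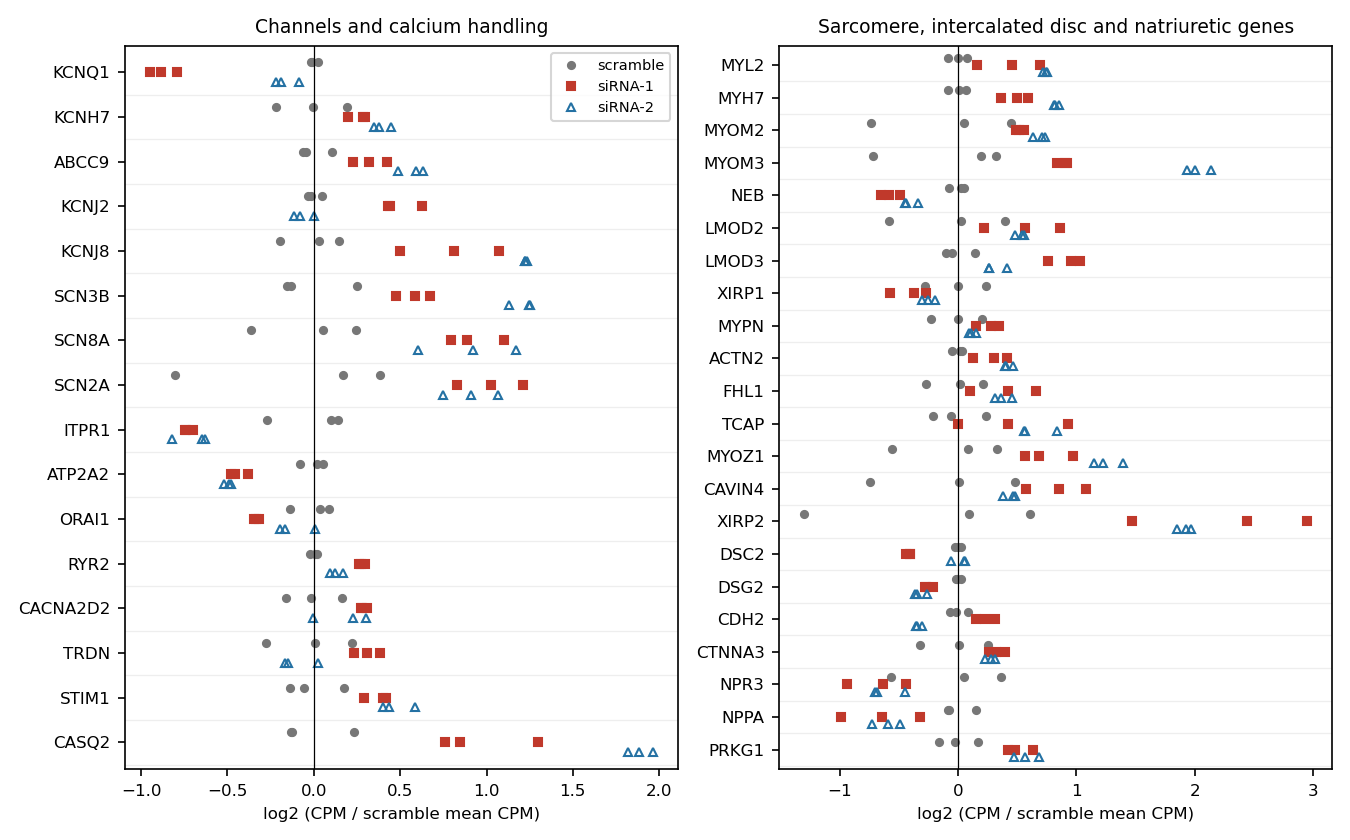
Called genes of channels and calcium handling (left) and of the sarcomere, intercalated disc and natriuretic system (right), as log2 of CPM over the mean CPM of scramble in single libraries; circles are scramble, squares siRNA-1 and open triangles siRNA-2. KCNQ1, KCNJ2, DSC2 and LMOD3 have tight groups that do not overlap, whereas LMOD2, TCAP, MYOM2 and NPR3 have a scramble library next to or among the siRNA-1 values.

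Of 27 neurite and adhesion molecules measured, 14 rose and 0 fell, with a median of 0.47. The stable members were OPCML, GAP43, CNTN3, ROBO2, CNTN5 and MAP2. In the 10-library fit 9 were called. With scramble library 1, 2 and 3 as the sole control the median was 0.51, 0.79 and 0.52. Against library 1 alone 6 were higher and 1 lower, SLIT3, a secreted guidance protein, at -0.40. GAP43 stood at 3.32, 2.35 and 2.72 CPM under scramble and 9.29, 8.66 and 8.11 CPM under siRNA-1 (log2 change 1.65 with an SE of 0.13, adjusted p = 1.45e-08). CNTN3 stood at 0.63, 0.446 and 0.713 CPM under scramble and 1.53, 1.81 and 1.91 CPM under siRNA-1 (log2 change 1.52 with an SE of 0.23, adjusted p = 6.83e-05). CNTNAP2, a neurexin-like protein, stood at 0.63, 0.38 and 0.535 CPM under scramble and 1.56, 1.03 and 1.14 CPM under siRNA-1 (log2 change 1.29 with an SE of 0.24, adjusted p = 0.000575). The levels of these genes were low, and the groups did not overlap in any of the 3. Markers of neural cells were measured beside them: 4 of 7 passed the filter on low counts, PAX6 and SNAP25 among them were higher (adjusted p = 0.164 and 0.136 in the 10-library fit), and their summed level was 12.1 to 21.2 CPM in scramble and 23.1 to 25.3 CPM with siRNA-1. SOX2, ELAVL4 and DCX did not pass the filter. The part of such cells in the result was not tested. In bulk libraries, more or fewer cells of a type cannot be told apart from more or less RNA per cell.

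Of 29 genes of heparan sulfate synthesis and its core proteins, 6 rose and 1 fell, against 5.85% and 3.76% of all genes tested. These enzymes and glypicans build the sulfated chains that bind growth factors at the cell surface. NDST3, an enzyme that starts sulfation of the chain, stood at 1.32, 0.463 and 0.829 CPM under scramble and 2.8, 2.71 and 3.56 CPM under siRNA-1 (log2 change 1.84 with an SE of 0.23, adjusted p = 5.66e-06). NDST4, of the same family, stood at 4.67, 3.47 and 3.65 CPM under scramble and 7.47, 6.44 and 7.29 CPM under siRNA-1 (log2 change 0.86 with an SE of 0.11, adjusted p = 9.35e-06). HS3ST3B1, which adds a late sulfate, rose by 0.76 (SE 0.12, adjusted p = 0.000126) and its relative HS3ST3A1 by 0.71 (SE 0.14, adjusted p = 0.000922). The stable members were NDST3, NDST4, HS3ST3B1 and the glypicans GPC3 and GPC4, and all of them but GPC3 were called in the 10-library fit (adjusted p = 0.0506 for GPC3). HS3ST3A1 was not called there (adjusted p = 0.103).

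Matrix genes moved both ways, with 5 of 31 higher, 6 lower and a median of -0.05. Over all genes tested 5.85% rose and 3.76% fell. Against scramble library 1 alone 1 was higher and 8 lower (median -0.22), with library 2 alone 9 and 2 (0.21), and with library 3 alone 3 and 3 (-0.04). So the balance of the list turned with the control. THBS1, a matrix glycoprotein that binds TGF-beta, stood at 223, 209 and 218 CPM under scramble and 136, 128 and 132 CPM under siRNA-1 (log2 change -0.71 with an SE of 0.08, adjusted p = 1.94e-06). POSTN, periostin, stood at 25, 15.4 and 20.6 CPM under scramble and 45.5, 38.8 and 35 CPM under siRNA-1 (log2 change 0.97 with an SE of 0.14, adjusted p = 3.88e-05). Both were stable and did not overlap. CCN2, a target of TGF-beta, had a log2 change of -0.57 (SE 0.17, adjusted p = 0.0338) that was not called with the 6 libraries alone (adjusted p = 0.0627), by DESeq2 (0.138) or in the 10-library fit (0.387). Of the fibroblast markers, 6 of 8 passed the filter and 3 of them were higher, POSTN and, not called in the 10-library fit, COL1A1 and PDGFRA (adjusted p = 0.364 and 0.148), with a summed level of 89.8 to 135 CPM in scramble and 152 to 165 CPM with siRNA-1. DCN and LUM were below 1 CPM in all 6 libraries. The part of such cells in the rise of POSTN was not tested.

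For the lists that remain, counts are read against the 9.61% of all genes called. Of 27 genes of double-stranded RNA sensing and the interferon response 1 rose, IFI44, at a level near the limit of the counts, 0.0434, 0.0496 and 0.0535 CPM under scramble and 0.235, 0.0776 and 0.254 CPM under siRNA-1. Of 14 genes of the small RNA machinery 0 rose and 3 fell, SND1 by 0.31 (SE 0.07), AGO1 by 0.24 (SE 0.07) and TNRC6A by 0.21 (SE 0.06). Of 29 genes of hypoxia and glycolysis 5 rose and 1 fell. PGAM1, a glycolytic enzyme, stood at 94.7, 99.2 and 97.6 CPM under scramble and 75, 69.7 and 70.1 CPM under siRNA-1 (log2 change -0.44 with an SE of 0.07, adjusted p = 8.81e-05) and was stable. CA9, a carbonic anhydrase induced by hypoxia, rose by 0.54 (SE 0.14), NDRG1 by 0.48 (SE 0.13) and PFKFB3, a regulator of glycolysis, by 0.48 (SE 0.12). None of the genes named in this paragraph was called in the 10-library fit (adjusted p of 0.0568 for PGAM1 and 0.146 to 0.499 for the others). Of 13 mRNAs encoded by mitochondria 0 were called, with a median of 0.13.

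**Figure D5:**
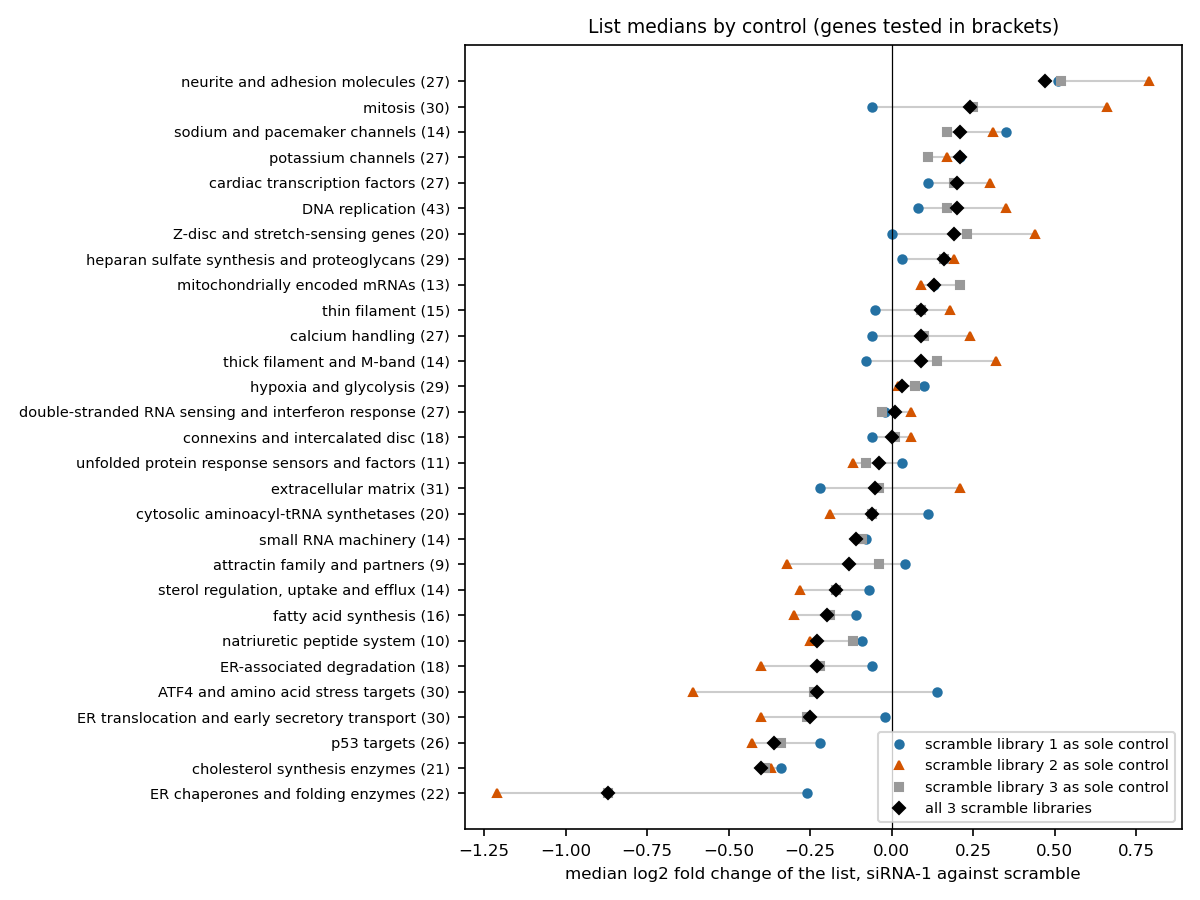
Median log2 fold change of each gene list with all 3 scramble libraries as controls (diamonds) and with scramble library 1 (circles), 2 (triangles) or 3 (squares) as the sole control; grey lines join the lowest and highest single-control value. The 3 single controls nearly coincide for cholesterol synthesis (-0.34 to -0.39), stretch from -0.26 to -1.21 for ER chaperones and lie on both sides of 0 for several lists, among them mitosis, the targets of ATF4, the extracellular matrix and the thick and thin filaments.

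The comparison with siRNA-2 shows where the response was larger or smaller than with a second reagent against the same gene. By the test of siRNA-1 against siRNA-2, 1382 genes were higher with siRNA-1 (5.6% of those tested) and 1117 lower (4.53%), a split that turned to 1045 higher and 2055 lower when libraries were scaled by library size alone. In the 10-library fit 266 were higher (1.09%) and 193 lower (0.787%). Among the 201 genes that were stable, higher and called in the 10-library fit, siRNA-1 was farther from scramble than siRNA-2 in 21 by both fits and siRNA-2 farther in 4. Among the 88 that were lower, siRNA-1 was farther in 21 and siRNA-2 in 2. These genes were chosen on siRNA-1, which favours values that are farther with siRNA-1, so the counts are a description.

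Several of the largest falls were larger with siRNA-1 than with siRNA-2. P2RX1 stood at 26.5, 28.8 and 26.8 CPM with siRNA-2, and siRNA-1 lay lower (difference -1.10, SE 0.08, adjusted p = 3.51e-09). LEFTY2 stood at 3.59, 3.95 and 4.08 CPM with siRNA-2 (difference -1.02, SE 0.15, adjusted p = 6.98e-05). BANCR stood at 23.7, 22.1 and 22.2 CPM with siRNA-2, between scramble and siRNA-1 (difference -1.01, SE 0.09, adjusted p = 3.45e-08). In P2RX1 and LEFTY2 the siRNA-2 libraries all lay above the scramble libraries, and in BANCR all below them. KCNQ1 stood at 31.5, 34.4 and 32 CPM (difference -0.71, SE 0.11). CCNG1 stood at 398, 407 and 463 CPM (difference -0.53, SE 0.09) and DSC2 at 29.5, 27.4 and 29.6 CPM (difference -0.43, SE 0.07). Of the 21 genes lower and farther with siRNA-1 by both fits, 18 were not called in siRNA-2 against scramble, where 2378 genes were higher (9.64%) and 2092 lower (8.48%). Of the 21 genes higher and farther with siRNA-1 by both fits, 11 were not called there. Both sets were chosen for lying farther from scramble than siRNA-2, which favours siRNA-2 levels near scramble. Most genes tested were also not called with siRNA-2, so these counts are a description. The cholesterol enzymes divided by the same test. Of the 21, 7 were lower with siRNA-1 than with siRNA-2 and 2 higher. IDI1 differed by -0.52 (SE 0.09, adjusted p = 0.000304), and MSMO1 by -0.14 (SE 0.09, adjusted p = 0.4).

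Of the rises, OPCML, GAP43, CDH13 and DIRAS2 were larger with siRNA-1. GAP43 stood at 4.05, 3.73 and 4.55 CPM with siRNA-2 (difference 1.08, SE 0.13, adjusted p = 2.38e-06) and CDH13 at 2.73, 2.32 and 2.36 CPM (1.04, SE 0.14, adjusted p = 2.03e-05). OPCML differed by 0.99 (SE 0.12) and DIRAS2 by 0.99 (SE 0.14). KCNJ2 stood at 7.34, 7.95 and 7.51 CPM with siRNA-2, within the range of scramble or just below it (difference 0.57, SE 0.09), and LMOD3 at 31.7, 28.5 and 28.5 CPM (difference 0.60, SE 0.09). In contrast CASQ2 stood at 9.68, 10.2 and 9.29 CPM with siRNA-2, above siRNA-1 (difference -0.90, SE 0.12), and CALR at 212, 207 and 210.1 CPM, below it (difference 0.78, SE 0.12). CALR was the 1 of 22 ER folding genes that differed between the siRNAs. For HSPA5 the difference was 0.07 (SE 0.17) and for CHAC1 0.13 (SE 0.19). Of the mitochondrially encoded mRNAs, 12 of 13 were higher with siRNA-1 than with siRNA-2, but the siRNA-1 libraries spread widely. The mean log2 CPM of that list was 11.99, 11.70 and 11.17 with siRNA-1 and 11.14, 11.18 and 10.73 with siRNA-2. In scramble it was 11.52, 11.58 and 11.49. Library 3 of siRNA-1 thus lay below scramble and next to libraries 1 and 2 of siRNA-2.

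Most stable genes were also called in the same direction with siRNA-2 against scramble. Of those that rose, 192 were called higher with siRNA-2, 4 lower and 29 were not called. Of those that fell, 74 were called lower, 1 higher and 36 were not called. Over all genes tested, 9.64% were called higher and 8.48% lower with siRNA-2. Both siRNAs share the scramble libraries, so these calls are not independent. The 5 genes called in the opposite direction with siRNA-2 were named after their values were seen. ADAMTS5, a protease of matrix proteoglycans, stood at 9.43, 8.91 and 8.9 CPM under scramble and 14.8, 18.3 and 21.3 CPM under siRNA-1 and at 7.62, 7.25 and 7.08 CPM with siRNA-2. ISOC1, a protein with an isochorismatase domain, stood at 83.9, 69.3 and 75.7 CPM under scramble and 132, 129 and 129 CPM under siRNA-1 and at 61.2, 58.9 and 58.3 CPM with siRNA-2. NTRK2, a neurotrophin receptor, stood at 12.8, 12.1 and 12.8 CPM under scramble and 18.2, 19.9 and 20.3 CPM under siRNA-1 and at 9.4, 8.9 and 10.2 CPM with siRNA-2. In each of the 3, all siRNA-1 libraries lay above scramble and all siRNA-2 libraries below it. SFRP1, a secreted inhibitor of WNT signalling, stood at 837, 576 and 701 CPM under scramble and 458, 445 and 417 CPM under siRNA-1 and at 874, 859.5 and 869 CPM with siRNA-2. DDX18, an RNA helicase of ribosome assembly, had log2 fold changes of 0.43 with siRNA-1 and -0.23 with siRNA-2. The tested differences between the siRNAs were 1.31 for ADAMTS5, 1.12 for ISOC1, 1.03 for NTRK2, -0.98 for SFRP1 and 0.66 for DDX18, all called. DDX18 was not called with siRNA-1 in the 10-library fit (adjusted p = 0.0556).

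The labelled cell type was checked against its markers. Heart muscle markers were high in all 6 libraries, with TNNT2 at 2528 to 3469 CPM. Of the atrial markers, MYL7 stood at 1676 to 2545 CPM and MYL4 at 477 to 929 CPM, but SLN stayed below 0.3 CPM and NR2F1 below 0.7 CPM. The ventricular light chain MYL2 was present beside them, at 1069 to 1830 CPM. Of the endothelial markers 3 of 7 passed the filter on low counts, KDR, TEK and NFATC1, and PECAM1, CDH5, VWF and TIE1 did not. NFATC1 was higher with siRNA-1, and was not called in the 10-library fit (adjusted p = 0.0596). The summed level of the 3 was 71.4, 43 and 58.1 CPM in scramble and 70.2, 70.7 and 72.7 CPM with siRNA-1, with a median log2 fold change of 0.47. Over all genes tested 5.85% rose and 3.76% fell, and 14.7% were higher and 14.1% lower without overlap. Counts of so few markers say little about a cell type. Of the epicardial markers 3 of 6 passed, with a median of 0.57, and 2 were higher, WT1 and ITLN1. Their summed level was 5.21, 3.56 and 4.91 CPM in scramble and 7.75, 6.54 and 6.22 CPM with siRNA-1, so the groups did not overlap. Of the macrophage markers 4 of 7 passed, with a median of 0.45, and CD163 was higher. Their summed level was 1.93, 1.12 and 1.54 CPM in scramble and 3.19, 2.64 and 3.07 CPM with siRNA-1, again without overlap. Of the skeletal muscle markers 1 of 5 was higher, ACTN3, and of the smooth muscle and pericyte markers 1 of 7 was higher, ACTA2, and 1 lower, RGS5. ITLN1, CD163 and ACTN3 were called in the 10-library fit, and WT1, ACTA2 and RGS5 were not (adjusted p = 0.141, 0.395 and 0.237). The part of such cells in the results was not tested. The pluripotency gene NANOG did not pass the filter. POU5F1, a pluripotency factor, was at or below 0.149 CPM in all 6 libraries.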

How the data were processed

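RNA-seq of 15 libraries was deposited as 1 table of raw read counts (whole numbers, 1 row for each gene), which the authors had not normalized. Ribosomal RNA was depleted before library preparation, per the labels' protocols, although the molecule field names polyA RNA. The tools named are DESeq2 1.30.1 and STAR 2.7.9a with GRCh 38, per the submitters' processing notes, which give no role. The sources used here give neither the read counter nor its use of strand, so overlapping genes cannot be told apart. The columns give each library's group, and their numbers pair nothing. The labels do not state separate cultures. The p-values then measure the spread between libraries alone, and that spread may be technical.

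The 6 libraries compared held 37078568 to 107062380 counts. Rows with a bare number in place of a gene identifier (649 of 59429, at most 0.00437% of counts) were left out. Genes were kept with filterByExpr, scaled with TMM and fitted in 1 quasi-likelihood model of 5 groups (edgeR 4.0.16 under R 4.3.3; biological coefficient of variation 8.24%), with Benjamini-Hochberg adjustment. The standard error is the log2 fold change divided by the square root of F. On simulated data 72% of genes changed by 0.5 and 97% of those changed by 1 on the log2 scale were recovered. The changed genes were drawn from those with a mean of at least 1 CPM, so recovery at lower levels was not simulated. Named were ATRNL1, ATRN, the 14 stable genes of at least 1 CPM with the largest rise and the 14 with the largest fall, ranked by their smallest single-control change, and the 4 called members of each list with the largest change; other members and markers are given by levels. The members and lists were chosen with earlier results of these data known. Alternatives were another scaling, other filters, 6 libraries only, DESeq2 1.42.0, limma 3.58.1 with sample weights, a replicate block, each library left out, and single controls. Leaving out the libraries nearest to a mixture was added after seeing the data. Some members named by this rule are not reported here.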

Additional observations from a re-analysis of the deposited data

How the results depend on the processing

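With scramble library 1 or 3 as the sole control 330 and 733 genes were higher and 238 and 339 lower. Without the library of each group closest to a mixture of the other two, 300 were higher and 133 lower, the stable counts were 78 and 37, and siRNA-1 differed from siRNA-2 in 266 and 193 genes. With limma voom and sample weights 3968 were higher and 3358 lower, 363 and 239 were stable, and 2785 and 2353 differed between the siRNAs. The stable counts were 347 higher and 168 lower with library size only, 346 and 206 with a CPM of at least 1 in at least 3 libraries, and 475 and 294 with only 6 libraries in the fit. Without the libraries closest to a mixture, scramble library 3 was left out, so stable asked only for the single controls that remained. With library size only 2055 genes were lower with siRNA-1 than with siRNA-2. The cause of these shifts was not tested.

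Leaving out 1 library in turn gave 917 to 1945 higher and 504 to 1039 lower genes, 137 to 651 and 66 to 305 stable genes, and 901 to 1066 and 597 to 759 genes that differed between the siRNAs. The highest stable counts, 651 and 305, came without scramble library 1. The lowest, 137 and 66, came without library 2 of siRNA-1. Where a scramble library was left out, stable asked only for the single controls that remained, a looser rule than with all 3. The lower genes numbered 504 without scramble library 3, 549 without scramble library 2, and 551, 504 and 555 without siRNA-1 library 1, 2 and 3. The higher genes numbered 917 without scramble library 3. ATRNL1 ranged from -0.83 to -0.65 and was called each time.

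A replicate block by column number gave 1423 higher and 913 lower genes, with 146 and 86 stable. Same-numbered libraries of the 2 groups deviated together with correlations of 0.16, 0.01 and 0.02 over 7168 genes, so the numbers were not taken to pair the libraries, and not every library correlated best with its own number. Of 119 named genes, 118 kept their call under the block and 115 with RLE size factors. With scramble library 1 as the sole control 61 kept it, 56 lost it and 2 turned, WARS1 to 0.15 and SEC11C to 0.08. In the 10-library fit 62 kept it and 57 lost it. With 3 libraries a group, 72% of changes of 0.5 on the log2 scale were recovered in simulated data. The changed genes there had a mean of at least 1 CPM, so smaller changes and changes at lower levels may be missed. Neither the wider spread of the scramble libraries nor libraries close to a mixture of others were simulated.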
